A study of Mus musculus with 2 samples.

Results

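The genes described here are the D-type cyclins Ccnd1, Ccnd2 and Ccnd3, their kinases Cdk4 and Cdk6, the inhibitors Cdkn1a, Cdkn1b, Cdkn2a and Cdkn2c, and the retinoblastoma gene Rb1. These 10 genes were chosen by name, with earlier results of these data known, among 21887 protein-coding genes of the mouse RefSeq annotation. Chromatin immunoprecipitation followed by sequencing (ChIP-seq) had been performed on a T-cell lymphoma of an Lck-Dlx5 mouse, in which the Lck promoter drives a Myc-Tagged Dlx5 homeobox protein in thymocytes, and the antibody recognised the tag. The deposited calls come from 1 Myc-Tag ChIP library, labelled C57BL/6, and 1 input library, labelled C57BL/7, both from Lck-Dlx5 lymphoma and both without replicates. The labels call the material a primary tumor and the control an input, whereas the methods name a cell line and IgG, so that either way a single tumor or line stands for the model. All heights and distances below are therefore values of 1 library without a replicate check, and no p-value was computed.

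D-type cyclins bind Cdk4 and Cdk6 in the G1 phase of the cell cycle, and the active complexes phosphorylate the Rb1 protein, which otherwise holds E2F transcription factors inactive. The INK4 inhibitors, encoded by Cdkn2a and Cdkn2c among others, bind the kinases directly. The Cip/Kip inhibitors, encoded by Cdkn1a and Cdkn1b, bind cyclin and kinase complexes. In thymocytes Ccnd3 is needed for the expansion that follows pre-T-cell receptor signaling. Loss of Cdkn2a is a frequent event in T-cell leukemia. Dlx5 is a homeodomain protein of the Dlx family, for which TAATT is a known core binding sequence.

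Of the 10 genes, 7 had an entry in the RefSeq promoter table (GRCm38.p6), which holds 300-base windows with 250 bases before and 50 bases after each annotated start. Ccnd1, Ccnd2 and Rb1 had no entry. The 7 genes had 11 windows, and Myc-Tag intervals overlapped 2 of them, those of Cdk4 and Cdkn1b. The 250 bases before these 2 starts are given because the intervals cover them in part or as a whole. Capitals mark matches, on either strand, to the Dlx core TAATT and to the E-box CACGTG, the site bound by Myc and related factors. The Cdkn1b sequence is the plus strand of chr6:134920151-134920400 and the Cdk4 sequence is the plus strand of chr10:127063285-127063534.
Cdkn1b: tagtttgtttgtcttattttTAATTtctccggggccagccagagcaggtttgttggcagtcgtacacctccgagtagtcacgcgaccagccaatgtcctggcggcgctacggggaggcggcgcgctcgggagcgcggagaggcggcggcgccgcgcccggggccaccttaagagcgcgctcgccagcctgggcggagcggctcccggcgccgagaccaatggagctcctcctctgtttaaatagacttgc
Cdk4: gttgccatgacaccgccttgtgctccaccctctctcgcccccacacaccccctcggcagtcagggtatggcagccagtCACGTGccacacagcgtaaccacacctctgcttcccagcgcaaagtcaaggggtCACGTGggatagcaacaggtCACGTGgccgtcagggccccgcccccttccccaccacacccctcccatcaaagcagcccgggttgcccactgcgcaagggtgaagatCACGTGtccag

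The 1 TAATT match of Cdkn1b lay at bases -230 to -226 from the start (the start itself counted as 0), inside the interval. The Cdk4 window held no TAATT and 4 E-boxes, beginning at bases -172, -118, -98 and -11. The interval covered all 250 bases of the Cdkn1b sequence and the last 49 bases of the Cdk4 sequence, so that 1 of the 4 E-boxes lay inside it. Both summits lay after the start, at 335 bp for Cdkn1b and 241 bp for Cdk4, so neither printed sequence holds its summit. The other window with TAATT among the 11 belonged to the inner start of Cdkn2c, where no interval was called. Its 30 bases around the match, from the minus strand of chr4:109665444-109665473, are shown with the motif in capitals, where overlapping matches of either strand form 1 run.
Cdkn2c: tcacgtccatagTAATTAatcaagaactgc

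The files hold 3477 Myc-Tag intervals, each with 1 summit, and 28 input intervals with the same bounds as a Myc-Tag interval. The height of a summit is a score without a stated normalization, the read totals were not analysed here, and the depth is therefore unknown. Heights ranged from 9 to 301 with a median of 16 and quartiles of 13 and 19, and the median interval width was 752 bp. The submitters' processing notes name mm9, and browser views in the paper show mm10. On the coordinates of GRCm38 (mm10), 2030 summits (58.4%) fell within 1 kb of an end of a protein-coding gene, with 26.1% to 70.7% on each of the 20 chromosomes that had at least 20 intervals, so positions are given in mm10. The cell type was not checked by expression because these files hold none.

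A Myc-Tag interval was assigned to a gene if it reached into the gene or within 10 kb of one of its ends. By this rule 4 of the 10 genes had a Myc-Tag interval, namely Ccnd1, Ccnd3, Cdk4 and Cdkn1b, against 19.0% of all protein-coding genes. The paper had already named Ccnd1 as bound in its ChIP-seq, and the genes were chosen with earlier results known. The share of the 10 genes is therefore not an unbiased one. These 4 genes had 6 intervals, of which 3 lay at Cdkn1b. By role, 2 of 3 D-type cyclins, 1 of 2 kinases, 1 of 2 Cip/Kip inhibitors, 0 of 2 INK4 inhibitors and 0 of 1 pocket protein genes were counted. The input had no call at any of the 6. This holds for nearly all intervals of their size, since only 1 of the 3192 Myc-Tag intervals with a height up to 25 was called there. Among 9 T-cell genes (Cd3e, Cd3g, Cd3d, Cd4, Cd8a, Cd8b1, Lck, Thy1 and Ptprc), 6 had an interval by the same rule, again beside 19.0%. Of these, Cd3g and Cd3d shared the same 2 intervals, and the one assigned to Cd4 overlapped its neighbor P3h3. The Lck summit lay at base -220 from 1 of its 2 annotated starts. The Lck promoter also drives the transgene in these mice, and a part of the transgene in this call was not tested.

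**Figure D1:**
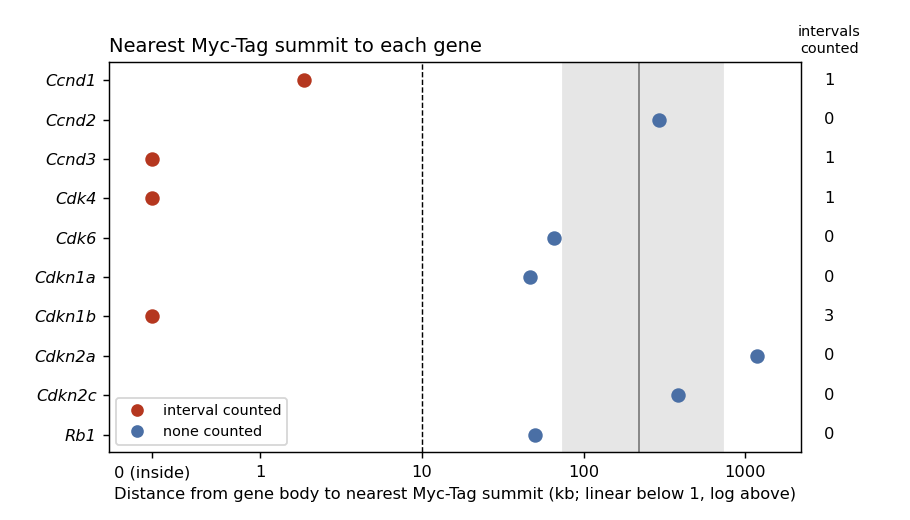
Distance in kb from the body of each of the 10 genes to the nearest Myc-Tag summit, with the number of intervals counted at the right. The dashed line marks 10 kb, and the grey band and line mark the quartiles (74.6 and 726 kb) and median (220 kb) over the 17719 protein-coding genes without an interval; the 6 genes without one lie from 46.3 kb to 1.18 Mb away.

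Among the D-type cyclins, the tallest summit was found at Ccnd1 (chromosome 7, 144929931 to 144939831), which encodes cyclin D1. Its interval ran from 144941206 to 144942065 and was 860 bp wide, with a summit height of 25 at 144941696. The summit lay outside the body, 1865 bp beyond the end with the higher coordinate, and the interval overlapped no annotated gene. Ccnd1 had no promoter entry, so its strand was not given. Whether the summit lies upstream or downstream of the gene was therefore not determined here. The paper reports Dlx5 binding at a promoter or enhancer region of Ccnd1 from its ChIP-seq, and its proposed mechanism places it at the promoter. The interval here comes from the data deposited for that ChIP-seq and is not separate evidence. It was also an isolated call. The next Myc-Tag summit was 1.87 Mb away, and 76 of all intervals (2.19%) were farther from their neighbor. Within 1 Mb of Ccnd1 this was the only interval, whereas the median protein-coding gene had 4. The gene LTO1 overlaps the other end of Ccnd1, and the interval was not within 10 kb of it.

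Ccnd3 (chromosome 17, 47505051 to 47599689), which encodes cyclin D3, had 1 interval from 47594484 to 47594976. The summit at 47594784 had a height of 15 and lay inside the gene. Ccnd3 has 2 annotated starts on the plus strand, and the interval covered bases 1017 to 1509 after the inner one at 47593467, with the summit at base 1317. No interval was called at the outer start, 89733 bp before the summit. At 493 bp it was the narrowest of the 6 intervals, and 90.8% of all Myc-Tag intervals were wider. Since Bysl, a ribosome biogenesis gene, overlaps the end of Ccnd3, the same interval was also within 10 kb of Bysl.

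Ccnd2 (chromosome 6, 127125162 to 127152188), encoding cyclin D2, had no interval. The nearest summit was 294 kb away with a height of 15, and it lay 238 bp from Parp11, a gene of the poly(ADP-ribose) polymerase family. Of the 17719 protein-coding genes without an interval, 43.2% were farther from a summit than Ccnd2. For the 3 D-type cyclins the calls thus took different forms, with an interval outside the gene at Ccnd1, an interval inside the gene at Ccnd3, and no call within 10 kb of Ccnd2.

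**Figure D2:**
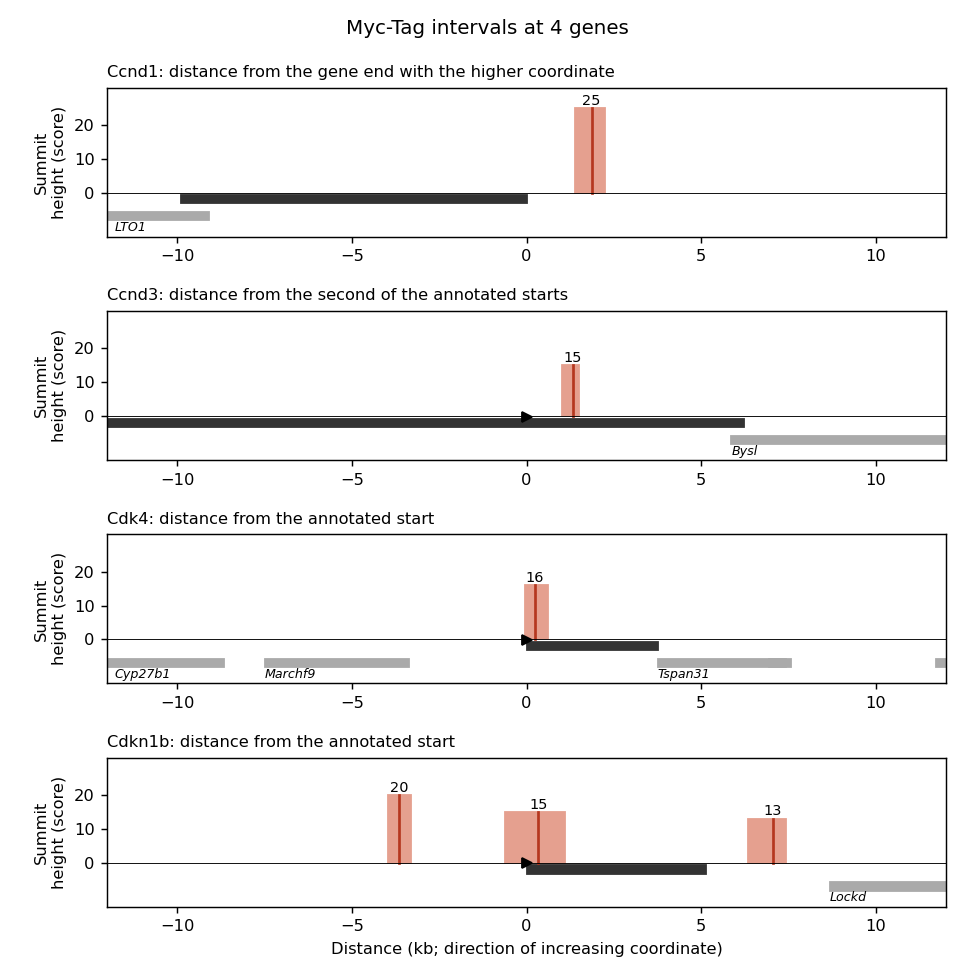
Myc-Tag intervals (pale boxes, drawn to their width) with summit positions (red lines) and summit heights (score) at Ccnd1, Ccnd3, Cdk4 and Cdkn1b. Black bars are the named gene, grey bars its annotated neighbors and arrowheads annotated starts; the x axis is the distance in kb from the start, or for Ccnd1 from its higher-coordinate end, and the 3 intervals of Cdkn1b lie before, at and after the gene.

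Of the kinase genes, Cdk4 (chromosome 10, 127063535 to 127067288) had an interval at its start. The interval ran from 127063486 to 127064153, that is from base -49 to base 618 around the start, and its summit of height 16 lay 241 bp downstream. The locus is dense in genes, with 49 protein-coding genes within 1 Mb, and the same interval was within 10 kb of Cyp27b1, Marchf9 and Tspan31, although it overlapped the body of Cdk4 alone. The next summit was 21.8 kb away, and 14 intervals lay within 1 Mb of Cdk4, a number that 92.7% of protein-coding genes fell below.

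Cdk6 (chromosome 5, 3341004 to 3531008) had no interval in its 190 kb body or within 10 kb of it. Its nearest summit, with a height of 15, was 65.2 kb away inside Rbm48, which encodes an RNA-binding protein. Among the 2429 protein-coding genes with a body of at least 100 kb, 19.8% had an interval by the same rule. Rb1, at 133 kb, was the other long gene of the 10, and it had none either.

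Cdkn1b, the Cip/Kip inhibitor gene on chromosome 6 (134920401 to 134925525), had 3 intervals within 11.4 kb, although the gene body is only 5.12 kb long. The first, from 134916445 to 134917084, had a summit height of 20, and its summit lay 3649 bp before the start. The second, from 134919774 to 134921510, had a summit height of 15, and its summit lay 335 bp after the start. The third, from 134926727 to 134927816, had a summit height of 13, and its summit lay 1931 bp past the end of the gene. The tallest of the 3 summits was thus the one upstream of the gene, and the interval over the start was the widest. At 1737 bp it reached from base -627 to base 1109, and only 57 of all Myc-Tag intervals (1.64%) were wider.

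A number of 3 or more intervals was reached by 124 of all protein-coding genes (0.567%). Of these, 60 were genes no longer than 10 kb, among 7926 such genes. The summits of the Cdkn1b intervals were 3.98 and 6.72 kb apart, and none of the 3 was within 10 kb of another protein-coding gene. The third interval lay between Cdkn1b and Lockd, a long noncoding RNA gene that begins at 134929092, and overlapped neither of them.

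The other Cip/Kip gene, Cdkn1a (chromosome 17, 29090979 to 29100722), a target of p53, had no interval at either of its 2 annotated starts. Its nearest summit, with a height of 14, was 46.3 kb away, 1316 bp from the splicing factor gene Srsf3. Its surroundings were nevertheless rich in calls, as 17 intervals lay within 1 Mb of it, a number that 96.3% of protein-coding genes fell below and the highest of the 10.

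The INK4 genes had no interval. Cdkn2a (chromosome 4, 89274473 to 89294619) was the most distant of the 10, with its nearest summit 1.18 Mb away in Focad, and no interval was called within 1 Mb of it. Of the protein-coding genes without an interval, 16.7% were farther from a summit. Cdkn2c (chromosome 4, 109660876 to 109666756) lay 381 kb from a summit of height 23 near Eps15, and 2 intervals were called within 1 Mb. At Rb1 (chromosome 14, 73192858 to 73325951), the nearest summit had a height of 15 and was 49.7 kb away, 335 bp downstream of a start of the neighboring gene Rcbtb2. For the 6 genes without a call, binding below the calling threshold was not detectable in these files.

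In height, the 6 intervals ranged from 13 to 25 with a median of 15.5, beside the 16 of all Myc-Tag intervals. The Ccnd1 summit was exceeded by 285 of the 3477 summits (8.20%) and the upstream Cdkn1b summit by 650 (18.7%). The Cdk4 summit was exceeded by 1418 (40.8%), the summits at Ccnd3 and at the Cdkn1b start by 1739 each, and the downstream Cdkn1b summit by 2464 (70.9%). Hence 3 of the 6 summits reached the median, at Ccnd1, Cdk4 and upstream of Cdkn1b. Only 2 of the 6 lay within 1 kb of an end of a protein-coding gene, those at the starts of Cdk4 and Cdkn1b. The other 4 belonged to the 1447 summits farther from gene ends, whose median height was 15. Among these, 9.33% exceeded the Ccnd1 summit and 19.9% the upstream Cdkn1b summit.

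**Figure D3:**
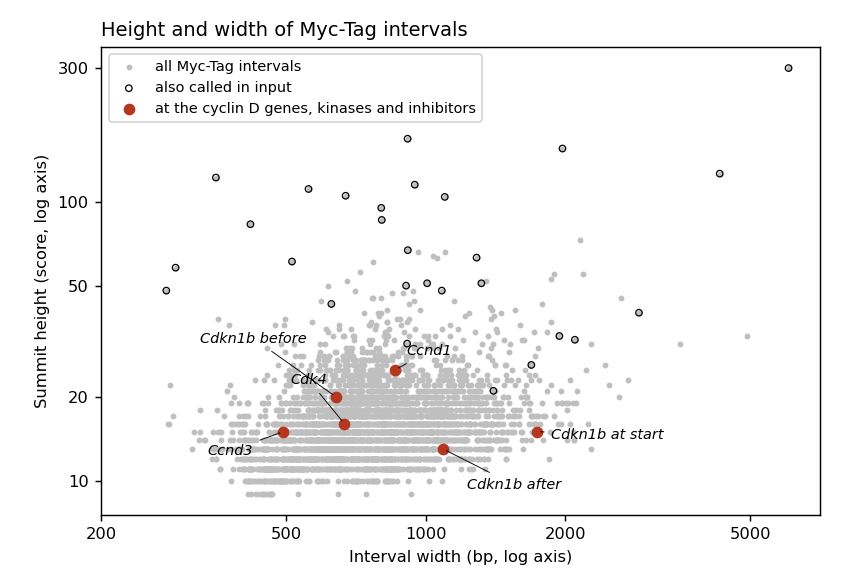
Summit height (score) against interval width (bp), both on log axes, for all 3477 Myc-Tag intervals (grey), those also called in the input (open circles) and the 6 intervals at the genes described here (red). Ccnd1, at 25, is the tallest of the 6 and the Cdkn1b interval over the start, at 1737 bp, the widest.

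For orientation, promoter entries were given for chromosomes that carry 3377 of the summits, and 1907 of these (56.5%) lay within 1 kb of an annotated start. Their median position was 37 bp downstream of the start, with quartiles of -100 and 178 bp. The Cdk4 and Cdkn1b summits, at 241 and 335 bp, were both downstream and beyond the upper quartile. All 6 summits, and 3329 of all 3477, lay on multiples of 16 bp, so these positions have a resolution of about 16 bp.

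**Figure D4:**
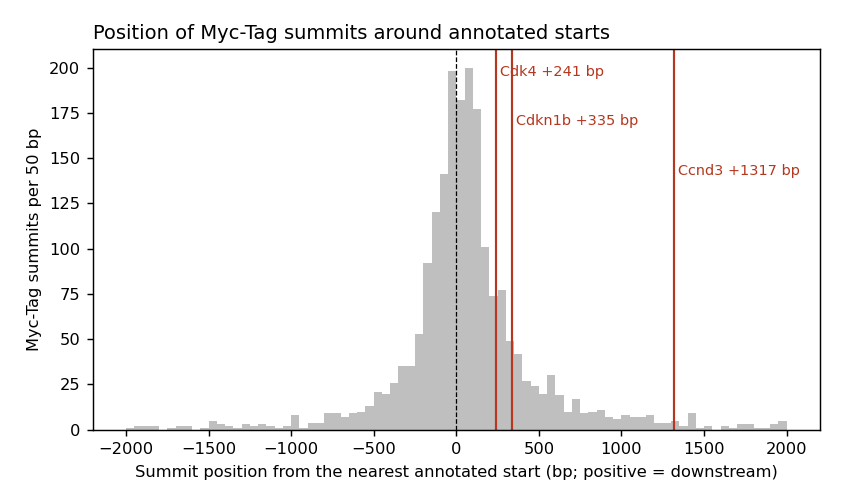
Number of Myc-Tag summits per 50 bp by their position relative to the nearest annotated start, within 2000 bp on either side. Red lines mark the summits inside Cdk4 (241 bp downstream), Cdkn1b (335 bp) and Ccnd3 (1317 bp from its inner start).

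In base composition, the promoter windows of Cdk4 and Cdkn1b lay within the range of the windows without an interval. Over all 21263 windows of protein-coding genes, the 2117 windows overlapped by an interval had a median of 25 CpG dinucleotides and a G and C content of 63.3%, and the 19146 others had a median of 11 and 55.7%. By the same rule 10.6% of the protein-coding genes with an entry had an interval over a window, and 2 of the 7 genes here did. The Cdkn1b window held 30 CpG and the Cdk4 window 22. Without an interval, the outer Cdkn2a window held 45, the outer Cdkn2c window 33, the Cdk6 window 27 and the inner Cdkn1a window 23, so that CpG-rich windows occurred among the genes without a call as well. At Ccnd3, which was called inside the gene, the inner window held 28 and had no interval over it. The lowest were the outer Cdkn1a window with 2 and the inner Cdkn2c window with 8.

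**Figure D5:**
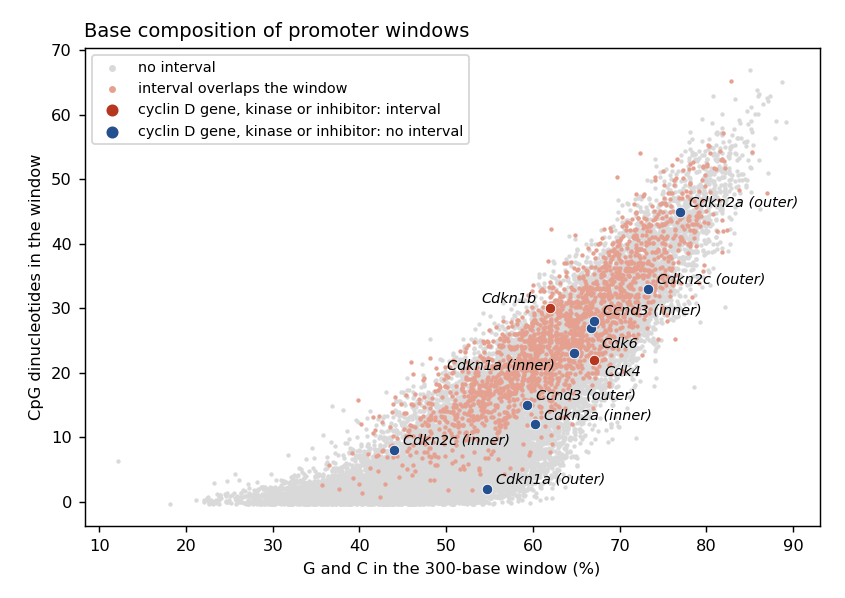
Number of CpG dinucleotides against G and C content (%) of the 300-base promoter windows of protein-coding genes, with (pale red) and without (grey) an overlapping Myc-Tag interval; small random shifts separate equal grey and pale red points. Labelled points are the 11 windows of the genes described here. Outer and inner name the annotated starts of a gene with 2 of them. The overlapped windows of Cdkn1b (30 CpG) and Cdk4 (22 CpG) lie between the CpG quartiles of the windows with an interval (19 and 32), where windows without an interval also occur.

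The TAATT core, searched on both strands, occurred in 2 of the 11 windows and in 23.5% of all 21263 windows. It was less frequent in the windows with an interval (14.0%, 296 of 2117) than in those without (24.5%, 4691 of 19146). A window counted with an overlap of at least 1 bp, so these shares do not describe the sequence under the intervals. The paper's motif search assigned most of its Dlx5 consensus binding to TAATT, which the window shares cannot check. The E-box CACGTG occurred in 3 of the 11 windows, those of Cdk4, Cdk6 and the inner start of Cdkn2c, and in 7.84% of all windows. A total of 4 E-boxes, as at Cdk4, was reached by 5 of the 21263 windows, at Mfsd1, Zmym6, Lamp1, Nxf2 and Cdk4, a count looked up after the Cdk4 window had been seen. Intervals overlapped 2 of these 5 windows, at Zmym6 and Cdk4, beside 2117 of all 21263 windows. Cdk4 is among the 2 by construction, because its window prompted the count. The count therefore cannot relate E-box number to intervals. CCAAT occurred in 4 of the 11 windows against 38.2% of all, with 3 copies at Cdkn1b, a number that 3.92% of all windows reached. The GC box GGGCGG occurred in 8 of the 11 against 46.2%, and TGACG in 5 of the 11 against 23.6%. Unlike TAATT, both were more frequent in the windows with an interval, at 70.8% against 43.5% for GGGCGG and at 39.1% against 21.9% for TGACG. The shares were 11.2% against 7.46% for CACGTG and 36.7% against 38.4% for CCAAT. The windows with an interval were also richer in G and C, as given above, and its part in these shares was not tested. A match is a run of letters and does not show that a factor was bound, and the sequence under the intervals outside these windows, Ccnd1 included, was not analysed here.

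Of 35 other cyclin, kinase, inhibitor and G1/S genes, 17 had an interval (48.6%), beside the 19.0% of all protein-coding genes. This list, too, was chosen with earlier results of these data known, so its share is not an unbiased one. An interval overlapped the gene body itself at 14 of the 35 (40.0%), beside 13.4% of all. Among cyclins E, A and B, 2 of 6 were counted, Ccne2 and Ccna2, with summit heights of 14 each. Among the cell cycle kinases and the genes of their activating kinase, 2 of 5 were counted, Cdk1 and Cdk2. Cdk1, the mitotic kinase, had a summit of height 14 lying 128 bp before its start. The interval counted at Cdk2, with a height of 17, overlapped Pmel and Rab5b and not Cdk2 itself. Of the other inhibitors, Cdkn2d was counted, while Cdkn1c and Cdkn2b had none. The interval counted at Cdkn2d, with a height of 14, overlapped both Cdkn2d and Kri1. Its summit lay inside Kri1, 587 bp outside the body of Cdkn2d. The nearest summit to Cdkn2b, the neighbor of Cdkn2a, was the same summit in Focad. Of the pocket protein and DP partner genes, only Tfdp2 was counted, with a height of 10, and Rbl1, Rbl2 and Tfdp1 were not. Thus 0 of 3 pocket protein genes had an interval when Rb1 is counted with Rbl1 and Rbl2.

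Genes that act on the G1/S switch through phosphatase or ubiquitin ligase function were counted in 5 of 8 cases, beside the 19.0% of all protein-coding genes, and in 2 of the 5 the interval overlapped only a neighboring gene. Cdc25a, whose phosphatase activates cyclin-dependent kinases, had a summit of height 23 lying 21 bp after its start. The ubiquitin ligase genes Fbxo4 and Fbxo31 had summit heights of 11 and 14. Fbxw7, whose ligase targets cyclin E, was counted through an interval of height 16 that lay just before the gene and overlapped the neighboring Gm35486, and Cul4a was counted through an interval of height 23 that overlapped its neighbor Pcid2. Of the other cyclins, 2 of 4 were counted, Ccnc (20) and Ccng2 (17), each with a summit within 1 kb of its start. Among the other cyclin-dependent kinases, Cdk5 (13), Cdk12 (17, and 13 over the neighboring Med1), Cdk13 (14 and 17) and Cdk8 (20 and 111, and 19 over the neighboring Rnf6) were counted and Cdk9 was not. The Cdk5 interval also overlapped Slc4a2. The summit of 111 inside Cdk8 was the only one of the 21 that was also called in the input, and Cdk8 stays counted without it. The intervals of this wider list lay within 1 kb of a coding gene end in 17 of 21 cases, beside 2 of 6 at the cyclin D genes, kinases and inhibitors and 58.4% of all Myc-Tag summits. For some of the 17, such as those over Rnf6, Med1 and Pcid2, that end belonged to the neighboring gene. Their median height was 16. The 18 genes of the list without an interval were between 11.7 kb and 1230 kb from a summit.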

How the data were processed

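ChIP-seq was carried out by Active Motif for the study on an Illumina GA II, with peaks called by MACS p-value. BWA is named in the submitters' processing notes. The MACS version, threshold, control used for calling and read extension are not given in the sources used here. The authors deposited 5 tracks in 1 table, namely summits and intervals of each library and active regions. The deposited value of a summit is a score, its height, without a stated normalization. All 3477 active regions equalled Myc-Tag intervals. Interval starts were counted from 1, and each summit was joined to its interval. Gene bodies and promoter windows came from RefSeq tables of GRCm38.p6, without the mitochondrial genes, and the promoter table gave strands. An overlap of at least 1 bp with a gene body or the 10 kb beside it was counted. Every gene of the 10 was named, as was each gene of the wider list with an interval. The genes and lists were chosen with earlier results of these data known. Motifs other than TAATT were added after the intervals had been seen. Alternatives were other distances, height thresholds and overlap rules. Overlap and distance code was tested on simulated data. Python 3.11.15, numpy 2.4.6, pandas 2.3.3 and matplotlib 3.10.9 were used.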

Additional observations from a re-analysis of the deposited data

How the results depend on the processing

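Of 40 recomputed counts, 28 stayed within 1.5 times the reported one and 12 did not. With the gene body alone or with 1 kb, 3 of the 10 genes (without Ccnd1) and 3 intervals were counted in place of 4 genes and 6 intervals, beside 13.4% and 14.2% of all protein-coding genes. With 50 kb, 6 genes (Cdkn1a and Rb1 added) and 11 intervals were counted, beside 7299 of all protein-coding genes (33.3%). When summits below the median height were left out, 3 genes and 3 intervals remained, beside 9 genes of the wider list and 2332 of all (10.7%). At or above the 75th percentile, 2 genes, Ccnd1 and Cdkn1b, and 2 intervals remained, beside 4 and 1325 (6.05%). These follow from how each alternative is built. Within 10 kb of annotated starts, 3 of the 7 genes with an entry were counted and 2619 of 17492 for all protein-coding genes, with fewer genes considered. Leaving out intervals called in the input, requiring 50% of the interval inside or using the summit alone left the 4 genes as they were.

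No paired analysis was possible because the ChIP and the input are 1 library each, and leaving out a replicate was not run for the same reason. The motif count under the intervals was not run, since genome sequence was not used here. A gene without an interval is one without a call, and the unknown depth limits every such statement.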
